A study of Gallus gallus with 18 samples.

Results

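APOB, MTTP, APOA1 and APOA4 encode the main proteins that chicken liver uses to build and secrete lipoproteins, and their RNA was followed in 3 tissues of birds before and after acute heat. All probe sets annotated to only one of these 4 symbols were taken, which gave 13 of the 38439 probe sets that are not array controls and 4 of the 13009 genes so annotated. APOB has 7 probe sets, and the other genes have 2 each. Probe sets of 1 gene read the same gene and are not replicates of a condition.

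Lipoproteins carry triglyceride and cholesterol through blood as particles with a coat of phospholipid and apolipoproteins. APOB is the large structural protein that stays with a very low density lipoprotein from its assembly to its uptake, and MTTP is the transfer protein of the endoplasmic reticulum that loads lipid onto it as it is made. APOA1 is the main protein of high density lipoprotein and accepts cholesterol from cells, and APOA4 is an exchangeable apolipoprotein related to it. In birds the liver makes most of the fat that these particles carry. Chicken APOA1 is also made outside liver and gut, in muscle and brain among other tissues.

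The study measured the response to acute heat in 3 tissues of young chickens: brain, liver and leg muscle. Birds lived at 28 ± 1 °C for 8 days and were then either sampled as controls (time label T0) or kept at 40 ± 1 °C for 3 h (T3). Total RNA was hybridised as biotinylated cRNA to 18 Affymetrix arrays, 3 per group in 6 groups. The labels call the 3 arrays of each group biological replicates. They name 24 birds, 12 male and 12 female, without age at hatch, strain or the bird, sex or pool behind each array. The p-values measure the spread between these arrays, and whether that is a spread between single birds or pools is not given. Brain samples are labelled as cerebral cortex. Time of sampling went with heat and cannot be told apart from it.

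Values are the deposited intensities, on a linear scale and, in liver, quantile normalized between the 6 arrays. Array medians ran from 79.7 to 99.3, and arrays of the same group correlated with each other at 0.976 to 0.993. The labelled tissues matched their markers. Median neuron, hepatocyte and skeletal muscle marker levels on the arrays of brain, liver and muscle were 98.3% to 107%, 93.7% to 107% and 96.0% to 105% of the control mean of that tissue. Probe sets for bacterial trp genes, a measure of background, reached 65.0 in brain, 97.6 in liver and 60.6 in muscle.

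Hepatocyte transcripts were also present on some arrays of the other tissues, and their part in the values of these 4 genes there was not tested. Over 17 hepatocyte markers on the array, brain heat 1 held a median of 12.1% of the liver control level. The brain controls held 0.640% to 0.800%, and the remaining brain heat arrays 1.18% and 1.54%. On the brain controls 8 to 10 of the 17 markers lay below 97.6, the highest trp value on any array. Muscle heat 3 held 24.8%, against 3.33% and 4.11% on the other muscle heat arrays and 1.26% to 3.72% on the muscle controls. ALB, the serum albumin of hepatocytes, read 65.7, 61.6 and 54.1 on the brain controls and 13260.2, 756 and 1099 on the brain heat arrays. Skeletal muscle markers, 12 on the array, also moved with heat in brain: 3 of 5 tested rose, and their sum was 2397 to 6043 on the brain heat arrays against 1435 to 1606 on the controls. Of 14 hepatocyte markers tested in brain, 4 rose, and 6.55% of all probe sets tested in brain were called higher. In liver 0 of 7 skeletal muscle markers tested were called, with a median log2 change of 1.19 and sums of 962 to 4818 on the heat arrays against 1030 to 1393 on the controls. Neuron markers, 11 on the array, summed to 531 to 1034 on the liver heat arrays against 423 to 448 on the controls. In muscle these sums were 612 to 1951 against 438 to 510. The 1 neuron marker tested in liver rose (6.94% of all probe sets did), and 0 of 3 tested in muscle were called. On the heat arrays 9 to 10 of the 11 in liver and 6 to 11 in muscle lay below 97.6, the highest trp value. All 11 did so on the liver and muscle controls. The filter on low values took the mean of log2(intensity + 16) over control and heat arrays. A marker under its limit on the controls passed only through its heat arrays and had to differ. ALB in brain, where the limit was 96.1, was such a marker. Calls of such markers are no support for a heat effect. The part of these transcripts in the heat differences was not tested. In such tissue samples, fewer cells of a type and less RNA per cell cannot be told apart.

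In unheated birds all 4 genes were highest in liver, and they differed in how much RNA the other tissues held. The main probe set of a gene is the one with the highest mean over the 18 arrays. That of APOB (Gga.4112.1.S1_at) read 7916, 5823 and 7019 on the liver controls, 146, 76.4 and 45.8 on the muscle controls, and 11.8 to 16.03 on the brain controls. The brain values lay inside the range of the trp background, and muscle control 3 did too. MTTP (GgaAffx.23852.1.S1_at) read 1435, 677 and 876 in liver, 68.7, 47.9 and 60.9 in muscle and 61.3, 41.9 and 46.1 in brain. Outside liver it was at or close to background on every control array.

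APOA4 followed the same order. Its main probe set (Gga.462.1.S1_x_at) read 11619.9, 8575 and 13718 on the liver controls, 363, 242 and 197 on the muscle controls and 123, 117 and 119 on the brain controls. The suffix x marks probes that can also bind other transcripts, and the second APOA4 probe set (Gga.462.2.S1_a_at) read only 45.3 to 47.8 on the brain controls, below the highest trp value. APOA1 was the exception in breadth: its main probe set (Gga.4719.1.S1_s_at) read 22073, 21164 and 22073 in liver, 9378, 11944 and 6339 in muscle and 7803, 7771 and 7636 in brain. Before quantile normalization the liver values reached 91.7% of the highest intensity on an array.

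**Figure D1:**
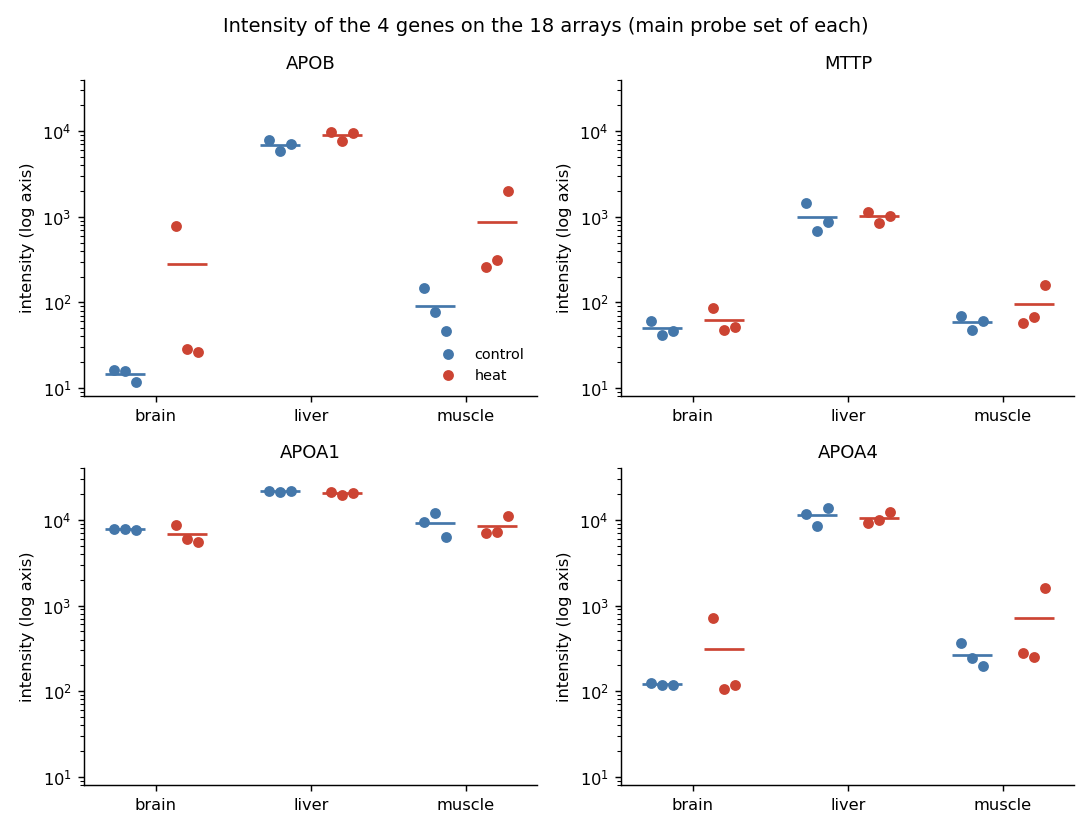
Intensity (log axis) of the main probe set of APOB, MTTP, APOA1 and APOA4 on each of the 18 arrays, by tissue and treatment; points are arrays and lines are group means of 3. APOA1 was within 1 order of magnitude across tissues, whereas the other 3 genes were far lower outside liver, least so on brain heat 1 and muscle heat 3.

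The tissue differences were tested over the 18 arrays with limma and Benjamini-Hochberg adjustment, with a call at an adjusted p under 0.05. A probe set entered a contrast when it passed the filter on low values in either tissue, so a liver gene that passed only through liver had to differ. By that route 12 of the 13 probe sets entered, and APOB Gga.11817.1.S1_s_at, at 39.3 to 62.7 on the liver controls, did not enter. Liver exceeded brain among controls at all 12, where 33.3% of all probe sets tested were called higher in liver (72.8% either way). Only both APOA1 sets and the main APOA4 set also passed the filter in brain itself. Their liver excess over brain was 2.81-fold (log2 1.49, SE 0.20, adjusted p = 4.28e-06) and 3.31-fold (log2 1.73, SE 0.28, adjusted p = 2.5e-05) for APOA1 and 82.1-fold (log2 6.36, SE 0.62, adjusted p = 5.57e-08) for APOA4. At these 3 probe sets no control arrays of liver and brain overlapped. The share of all probe sets without such overlap was not counted.

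Against muscle, 6 of the 12 probe sets had also passed the filter in muscle, and liver was higher at each of them, where 33.6% of all probe sets were called higher in liver (62.0% either way). The fold differences were 70.6 for the main APOB set (log2 6.14, SE 0.85, adjusted p = 7.54e-06), 40.4 and 39.6 for APOA4, and 2.44 and 2.99 for APOA1. The main APOB set passed in muscle only through its heat arrays, so that, like sets that passed only through liver, it had to differ. A second APOB set (Gga.20079.1.S1_s_at) gave only 4.41-fold, with 192 to 231 on the muscle controls against 754 to 1295 on the liver controls. The mean on the muscle controls was 211 for this second set and 89.5 for the main set. The rest of the 7 APOB sets had means of 15.6 to 38.3, below 60.6, the highest trp value in muscle. The second set thus stood apart, and how much APOB RNA unheated muscle held is not settled. Between brain and muscle, where 70.2% of all probe sets were called, 2 of 6 tested members were called, both lower in brain (29.7% of all probe sets were). These were the second APOB set, with means of 27.0 in brain and 211 in muscle, and the second APOA4 set, with means of 46.2 and 246. Both entered only through muscle, so that they had to differ, and their brain means lay below the highest trp value, so that no fold is given. APOA1 differed by 1.15-fold between brain and muscle (log2 -0.21, SE 0.20, adjusted p = 0.38). Muscle control 3, with the lowest hepatocyte level of the muscle controls, was also the lowest of them for APOA1, APOA4 and main APOB. The order was not shared throughout. Muscle control 1 had the highest hepatocyte level, but APOA1 was highest on control 2, where MTTP and the second APOB set were lowest. The part of hepatocyte RNA in these values was not tested.

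In liver, no heat difference of the 4 genes passed the adjusted test. None of the 12 tested probe sets was called, where 13.1% of all 19220 probe sets tested were called. One of the 12 had an unadjusted p under 0.05, and the median log2 change was 0.23, against -0.03 over all probe sets tested. On no member did the heat and control arrays separate without overlap, where 37.2% of all probe sets tested did. Of 17 hepatocyte markers none was called either, with a median log2 change of -0.0003. Intestinal epithelium, which also makes APOB, MTTP and APOA4, is a possible admixture of a liver sample. Its 11 markers on the array summed to 4380 to 4892 on the liver controls and 3577 to 3909 on the heat arrays, and 1 of 6 tested, ANPEP, fell by 0.43 (adjusted p = 0.040). Its defining gene FABP2 was at background, with means of 8.01 and 6.90.

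APOB was the member with the largest difference. Its main probe set read 9713, 7672 and 9472 on the heated livers, against 7916, 5823 and 7019 on the controls. Only liver heat 2 fell inside the control range, below control 1. The difference was 0.37 on the log2 scale (SE 0.14, 95% interval 0.06 to 0.69), with an unadjusted p of 0.026 and an adjusted p of 0.11 by limma. Array weights gave 0.39 with an adjusted p of 0.037, past the threshold, but called 5002 probe sets in liver against 2512 without weights. The 6 fits without 1 array gave 0.25 to 0.48 with adjusted p from 0.060 to 0.29.

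The other 5 tested APOB probe sets also had positive estimates in liver, from 0.22 to 0.59, with SE from 0.20 to 0.49 and adjusted p from 0.19 to 0.79. The largest, Gga.6583.1.S1_at, read 136, 131 and 205 on the controls and 338, 283 and 144 on the heat arrays. Without liver heat 3, its only heat array inside the control range, its difference was 0.94 and was called (adjusted p = 0.048). That fit called 1079 of all probe sets tested in liver. It was the only call of this set in the 6 fits without 1 array, which gave 0.36 to 0.94 with adjusted p up to 0.47. The set GgaAffx.24976.1.S1_at depended on 1 control array: it read 1401, 283 and 480.3 on the controls, so that its estimate ran from -0.28 to 0.85 when single arrays were left out. Across the 6 liver arrays the 15 pairs of APOB sets correlated at a median r of 0.83 (lowest -0.02, highest 0.99), a description over arrays that share their scaling.

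MTTP, which loads lipid onto APOB, read 1435, 677 and 876 on the liver controls and 1139, 856 and 1031 on the heat arrays. The heat values lay within the control range, which was itself wide (996 ± 393 against 1009 ± 143; SD, n = 3). Its log2 difference was 0.08 (SE 0.25, 95% interval -0.50 to 0.65, adjusted p = 0.86 by limma). The second MTTP set, at 110.0 to 222 on the controls and 158 to 223 on the heat arrays, gave 0.25 (SE 0.23, adjusted p = 0.47).

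APOA1 had the narrowest spread of the 4 in liver, at intensities near the top of the scale, where differences can be compressed and quantile normalization gave controls 1 and 3 the same value. It read 22073, 21164 and 22073 on the controls and 21384, 19703 and 20614 on the heat arrays, and 1 heat array lay inside the control range. The difference was -0.08 (SE 0.07, 95% interval -0.24 to 0.08, adjusted p = 0.44), and the second set gave -0.11 (SE 0.08, adjusted p = 0.36). APOA4 read 11619.9, 8575 and 13718 on the controls and 9259.8, 9941 and 12528 on the heat arrays, all 3 inside the control range. Its difference was -0.08 (SE 0.18, 95% interval -0.48 to 0.32, adjusted p = 0.78), and that of its second set was -0.06 (SE 0.18, adjusted p = 0.84).

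**Figure D2:**
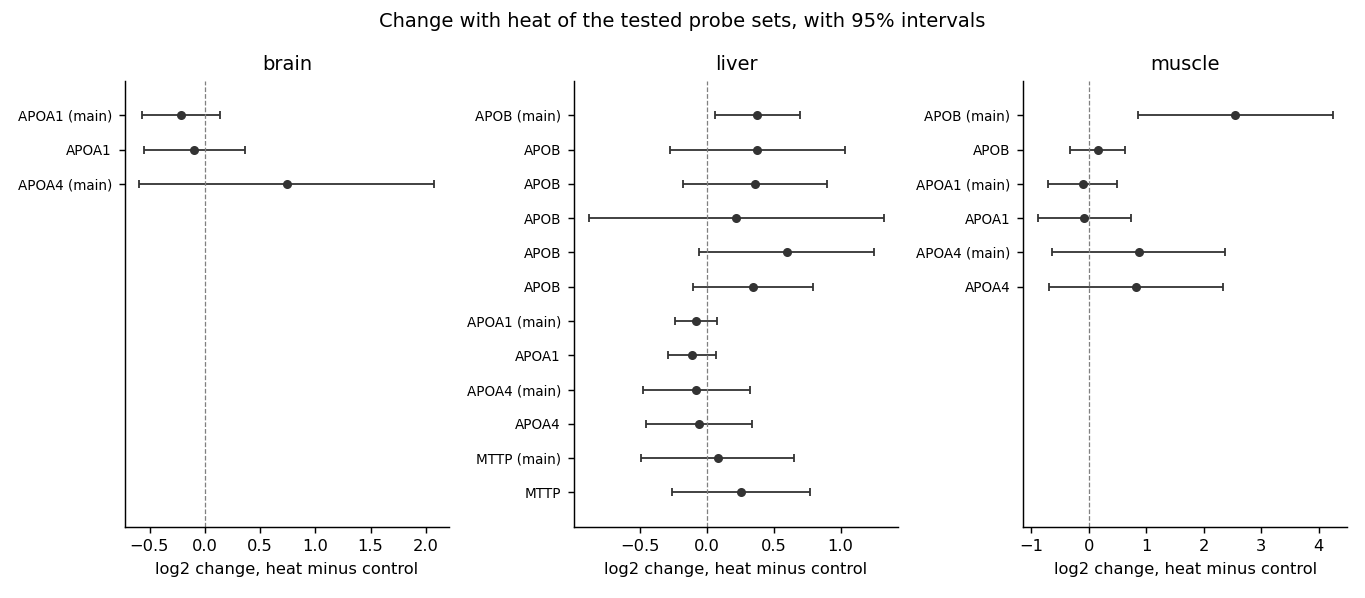
Log2 change with heat (heat minus control) of every tested probe set of the 4 genes in brain, liver and muscle; points are estimates and bars are 95% intervals from limma, with 3 arrays per group. In liver the 6 APOB estimates are all above 0, from 0.22 to 0.59, and the APOA1 intervals, near the top of the scale, are the narrowest; none of the 21 estimates was called.

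In brain, APOA1 is the member with RNA well above background, and its heat arrays split. Its main probe set read 7803, 7771 and 7636 on the controls and 8842, 5956 and 5577 on the heat arrays. Brain heat 1 lay above all controls, and the other heat arrays lay below all of them. The difference was -0.22 (SE 0.15, adjusted p = 0.37 by limma), and that of the second set was -0.09 (SE 0.20, adjusted p = 0.79). None of the 3 members tested in brain was called, and none had an unadjusted p under 0.05, where 12.3% of all probe sets tested were called. The groups overlapped at all 3, whereas they did not overlap at 36.5% of all probe sets tested.

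Leaving out brain heat 1, the only heat array above the controls on the main set, changed that result. APOA1 was then lower with heat and called on both probe sets, at -0.42 (SE 0.06, adjusted p = 0.0013) and -0.35 (SE 0.10, adjusted p = 0.036). Each set was called in only 1 of the 6 fits without 1 array. Over those fits the estimates ran from -0.42 to -0.09 for the main set and from -0.35 to 0.08 for the second. The array left out was singled out after its values were seen, so these calls are no support for a heat effect. With array weights the main set was called too, at -0.32 (adjusted p = 0.039). That setting called 6922 of the 19220 probe sets tested in brain. Without brain heat 1, 4434 of the 19220 probe sets tested were called in brain, against 2361 with it. Brain heat 1 is the array on which hepatocyte markers were highest. There APOA1 stood above the brain control mean by 5.08% of its liver control level and hepatocyte markers by a median of 9.52% (range 2.38% to 52.6%).

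Choroid plexus markers also differed between the brain arrays. TTR, the thyroid hormone carrier made by choroid plexus and liver, read 23091, 22058 and 10466 on the controls and 21941, 305 and 11301 on the heat arrays. The 5 choroid plexus markers on the array summed to 12690 to 26118 on the controls and 2966 to 25707 on the heat arrays. Their defining gene OTX2 was below the highest brain trp value on control 3 and on heat 2 and 3. Of the 3 markers of this list tested, none was called. The part of choroid plexus or liver RNA in the APOA1 values was not tested.

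**Figure D3:**
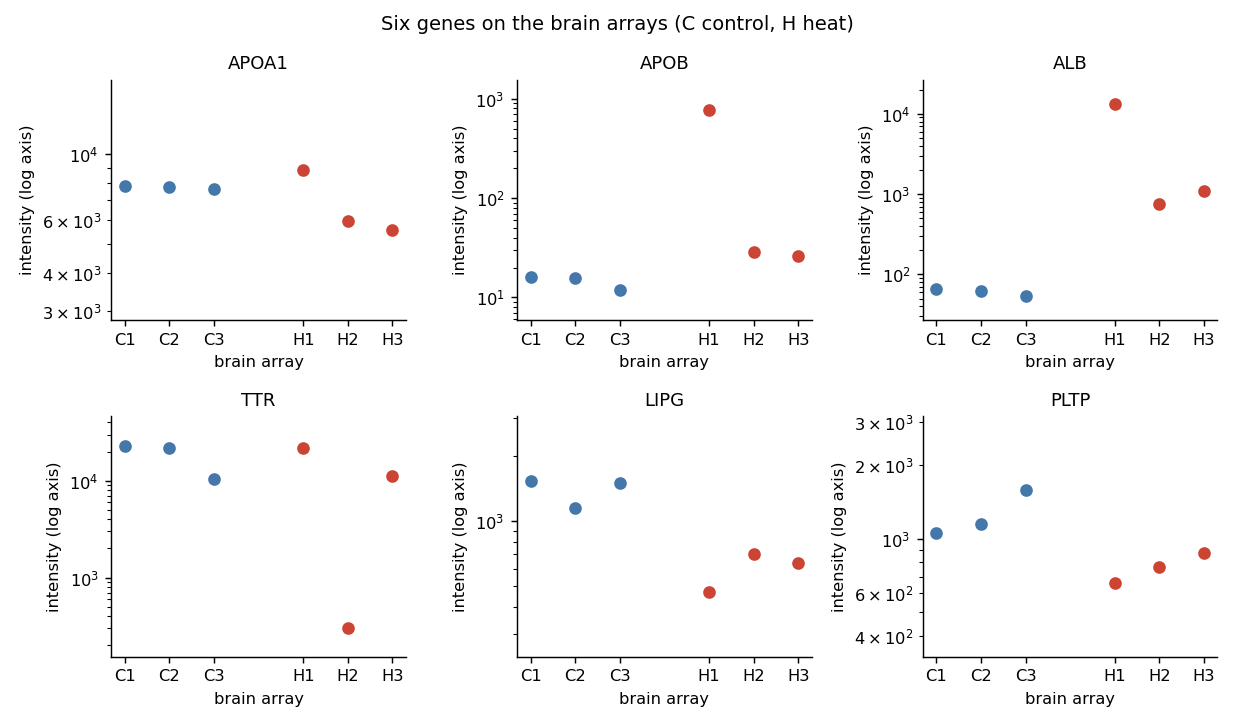
Intensity (log axes with their own ranges) of APOA1, APOB, ALB, TTR, LIPG and PLTP on the brain arrays, with controls C1 to C3 in blue and heat arrays H1 to H3 in red. APOB and ALB are highest on H1, at 779 and 13260.2, APOA1 is lower than the controls on H2 and H3, and LIPG and PLTP are lower on all 3 heat arrays.

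The main probe sets of APOB, APOA4 and MTTP were highest on brain heat 1. Main APOB read 779, 28.7 and 26.0 on the brain heat arrays, and the values of heat 2 and 3 lay inside the range of the trp background. The main APOA4 set read 710.2, 104 and 117, which gave a log2 difference of 0.74 (SE 0.58, adjusted p = 0.42). Without brain heat 1 the APOA4 estimate was -0.10. MTTP read 86.7, 47.0 and 51.8.

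Above the brain control mean, heat 1 held 11.0% of the liver control level of the main APOB set and 0.19% to 8.62% of that of the other 6 APOB sets. The APOA4 sets held 5.23% and 2.40%. The main MTTP set held 3.71%, and the second MTTP set was below its brain control mean (-0.50%). SAA, the acute phase apolipoprotein of high density lipoprotein, read 63.8, 124 and 97.8 on the brain controls and 8730.2, 267 and 894 on the heat arrays. Its log2 difference was 3.60, and its adjusted p of 0.052 missed the threshold. The SAA mean on the brain controls, 95.1, lay under the brain filter limit of 96.1. SAA thus passed only through its heat arrays, so its difference and p-value are no support for a heat effect.

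In leg muscle, APOB was again the gene with the largest difference. Its main probe set read 146, 76.4 and 45.8 on the controls and 262, 313 and 2005 on the heat arrays, so that all heat arrays lay above all controls. The difference was 2.55 on the log2 scale (SE 0.73, 95% interval 0.86 to 4.24), with an unadjusted p of 0.0086 and an adjusted p of 0.17 by limma. Without muscle heat 3, the array with the highest hepatocyte level, it was 1.64. Of the 6 tested members this was the only one whose groups did not overlap, where 21.8% of all probe sets tested in muscle did not (10.1% with heat above). The filter took the mean over control and heat arrays, with a limit of 85.1 in muscle. Main APOB passed it only through its heat arrays, so its separation and p-value are no support for a heat effect.

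None of the 6 was called in muscle, where 0.0052% of all probe sets tested, a single one, was called, and 1 of the 6 had an unadjusted p under 0.05. A second APOB set read 231, 192 and 210.0 on the controls and 186, 218 and 321 on the heat arrays, a difference of 0.15 (SE 0.21, adjusted p = 0.77). The main APOB set thus read below this second set on every muscle control and above it on every muscle heat array. APOA4 read 363, 242 and 197 on the controls and 279, 249 and 1615 on the heat arrays, with only heat 3 outside the control range. Its estimate of 0.87 (SE 0.65, adjusted p = 0.55) became 0.02 without muscle heat 3.

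APOA1 in muscle read 9378, 11944 and 6339 on the controls and 6985, 7267 and 11166 on the heat arrays. The groups overlapped throughout, and the difference was -0.11 (SE 0.26, 95% interval -0.71 to 0.49, adjusted p = 0.88). MTTP, not tested in muscle because of its low level, read 56.9, 67.2 and 159.6 on the heat arrays. On muscle heat 3 the excess over muscle controls was 27.7% of the liver control level for the main APOB set and 5.59% to 12.5% for the other 6 APOB sets. It was 11.9% and 11.6% for APOA4, 10.1% and 8.92% for MTTP and 8.94% for main APOA1. Hepatocyte markers on that array had a median excess of 22.7% (range 11.5% to 58.3%). On muscle heat 1 and 2, main APOB exceeded the controls by 2.50% and 3.24% of its liver level, and the other 6 APOB sets ran from -3.55% to 7.62% and from -4.68% to 1.17%. The marker medians there were 1.41% and 1.13%, with ranges of 0.33% to 10.6% and -0.53% to 13.0%. The part of hepatocyte RNA in the APOB difference was not tested.

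**Figure D4:**
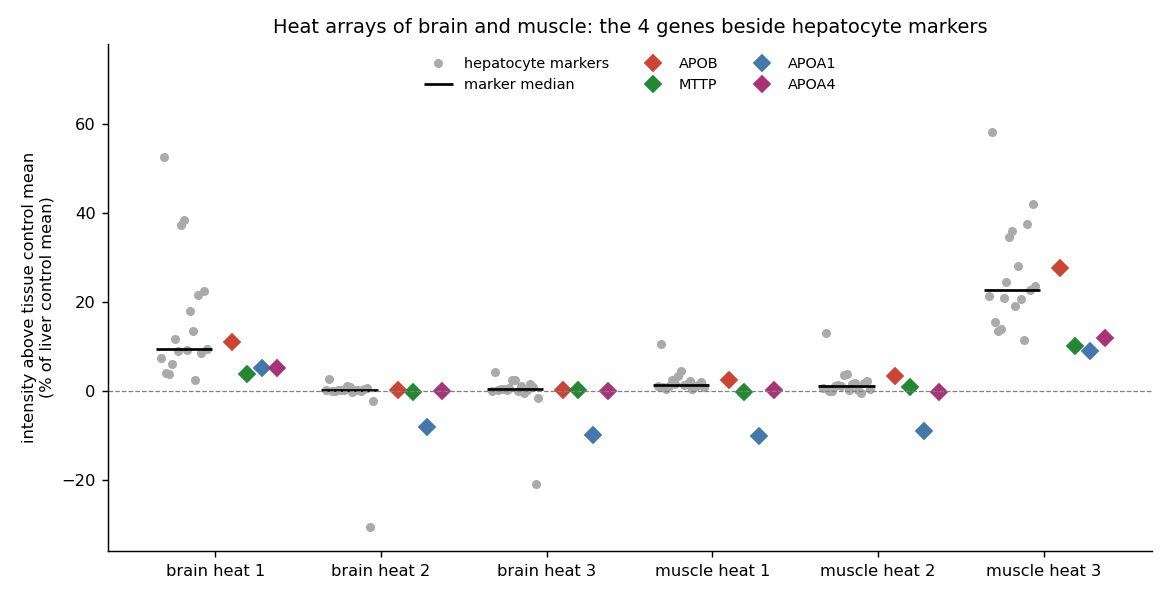
Intensity above the control mean of the same tissue, as a percentage of the liver control mean, on the 3 brain and 3 muscle heat arrays; grey points are 17 hepatocyte markers, black lines their medians and diamonds the main probe sets of the 4 genes. Brain heat 1 (marker median 9.52%) and muscle heat 3 (22.7%) stand above the other arrays for markers and for the main sets of APOB, MTTP and APOA4, and APOA1 is negative on the other 4 arrays.

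The heat effect itself was compared between tissues by interaction contrasts over the 18 arrays. No member was called, and none had an unadjusted p under 0.05, among 12 tested for liver against brain, 12 for liver against muscle and 6 for muscle against brain. Of all probe sets, 1.67%, 0.968% and 0.341% were called in these contrasts. For main APOB the liver effect was lower than the muscle effect by 2.17 on the log2 scale, but with an SE of 1.21 (log2 difference -2.17, adjusted p = 0.50). For main APOA1 the liver effect exceeded the brain effect by 0.14 (SE 0.29, adjusted p = 0.88). These standard errors leave wide intervals, and a like response in the 3 tissues is not shown.

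APOA1, APOA4 and APOA5 lie side by side in the chicken genome. In the RefSeq annotation (GRCg7b), used only for the order of genes, the order is BUD13, ZPR1, APOA5, APOA4, APOC3, MIR12250, APOA1, SIK3, PAFAH1B2 and SIDT2. APOC3 has no probe set with that symbol alone and was not analysed here. APOA5, which promotes clearance of plasma triglyceride and is made in liver, fell with heat. It read 977, 595 and 1047 on the liver controls and 399, 422 and 451 on the heat arrays, with no overlap. The fall was 1.96-fold (log2 -0.97, SE 0.21, adjusted p = 0.023). It was called in all 12 other settings, and lost its call without liver control 3, heat 1 or heat 3 (adjusted p = 0.081, 0.081 and 0.057).

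PAFAH1B2, a subunit of a platelet-activating factor acetylhydrolase on the other side of APOA1, also fell in liver (log2 -0.61, SE 0.13, adjusted p = 0.023), and was looked at for its position. ZPR1, BUD13 and SIDT2 did not pass the threshold (log2 -0.25, 0.01 and -0.35), and SIK3 was too low in liver to be tested. The main probe sets of APOA1 and APOA4, which lie between them, had estimates of -0.08 each.

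The genes that work with these 4 were taken from 5 lists, each gene by its main probe set. Of 8 genes tested in liver from the list of other apolipoproteins and egg yolk lipoproteins, APOA5 fell and 7 were not called. Among these were APOH at 0.07 (adjusted p = 0.52) and SAA at -0.03 (adjusted p = 0.84). The list median was 0.06, against -0.03 over all probe sets tested. The same list had no calls among 7 genes in brain and 7 in muscle, where 12.3% and 0.0052% of all probe sets tested were called.

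Of 20 genes for assembly and export of lipoproteins tested in liver, 2 rose and 4 fell, with a list median of -0.09, where 6.94% of all probe sets tested were called higher and 6.13% lower. With the deposited scaling 69.4% of the liver calls were higher, against 53.1% here. MIA2, an exit site factor that helps load bulky cargo such as lipoproteins, read 272, 232 and 321 on the controls and 473, 408 and 492 on the heat arrays (log2 0.71, SE 0.16, adjusted p = 0.024). Averaging its probe sets gave 0.36 and no call (adjusted p = 0.10). SEC24B, a cargo adaptor of the COPII coat that carries proteins out of the endoplasmic reticulum, rose by 0.51 (adjusted p = 0.034). Its relative SEC24D fell by 0.67 (adjusted p = 0.031), and SAR1A, a GTPase that starts the coat, fell by 0.64 (adjusted p = 0.034).

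TM6SF2, which in mammals promotes lipid loading of secreted particles, fell by 0.57 in liver (adjusted p = 0.045). PLA2G12B, needed in mice for normal secretion of APOB particles, fell by 0.81 (adjusted p = 0.034). P4HB, the disulfide isomerase that forms a complex with MTTP, stood at 10629 in control and 10427 in heated liver (log2 -0.03, SE 0.10, adjusted p = 0.88). SAR1B, the relative of SAR1A tied to lipoprotein export in human disease, had an estimate of -0.25 (adjusted p = 0.15).

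Of 10 plasma lipases, transfer proteins and lipid exporters tested in liver, 1 rose and 1 fell, where the shares over all probe sets tested were 6.94% and 6.13%. LIPC, the hepatic lipase that trims lipoprotein remnants, rose 3.07-fold (log2 1.62, SE 0.30, adjusted p = 0.015), from 311, 160.1 and 249 to 919, 936 and 483, with no overlap. Without liver heat 1 its difference was 1.46 and the call was lost (adjusted p = 0.062). LMF1, a factor for the maturation of lipases, fell by 0.52 (adjusted p = 0.043). Of 10 receptors and partners 2 rose and 1 fell, against the same shares. VLDLR (0.81, adjusted p = 0.029) and the fatty acid and lipoprotein receptor CD36 (0.61, adjusted p = 0.018) rose. SCARB1, the high density lipoprotein receptor, fell by 0.71 (adjusted p = 0.032).

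Of 21 transcription factors with known roles in liver apolipoprotein genes, 3 rose and 2 fell in liver, where 6.94% and 6.13% of all probe sets tested did. HNF4A, the nuclear receptor that drives APOB, MTTP and APOA1 transcription in mammals, fell 1.79-fold (log2 -0.84, SE 0.13, adjusted p = 0.0099). It read 1390.0, 1259 and 1314 on the controls and 796, 667 and 734 on the heat arrays, with no overlap. Averaging the HNF4A probe sets gave -0.44, still called (adjusted p = 0.025). SREBF2, the regulator of sterol synthesis, fell 3.17-fold (log2 -1.66, SE 0.22, adjusted p = 0.0062). PPARGC1A, a coactivator of fasting metabolism, rose 3.97-fold (log2 1.99, SE 0.28, adjusted p = 0.0071), CREB3L3, which in mice activates APOA4 and APOA5, rose by 0.79 (adjusted p = 0.014), and FOXO1 rose by 0.49 (adjusted p = 0.042). APOB, MTTP, APOA1 and APOA4 were not called in the same livers.

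**Figure D5:**
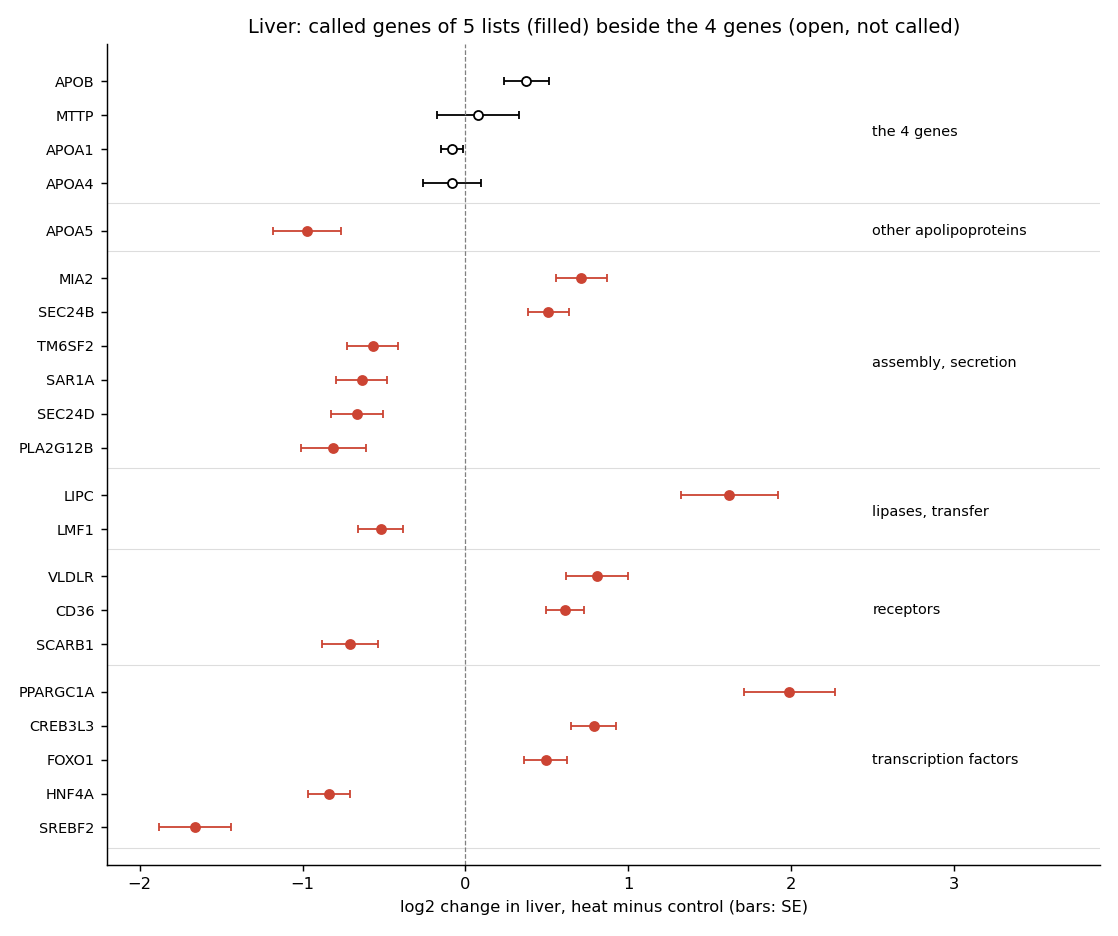
Log2 change in liver (heat minus control, bars are SE, 3 arrays per group) of the 17 called genes of the 5 lists, filled and grouped by role, beside the main probe sets of the 4 genes, open. The called genes run from SREBF2 at -1.66 to PPARGC1A at 1.99, and the 4 genes lie between -0.08 and 0.37.

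Most of these liver calls leaned on the full set of 6 arrays, although none changed direction in the fits without 1 array. HNF4A, PPARGC1A and SREBF2 were called in all 6 such fits. CREB3L3 and LIPC were called in 5, both lost without heat 1 (adjusted p = 0.054 and 0.062). CD36 was called in 3 and lost without control 2, control 3 or heat 1. MIA2, VLDLR and SCARB1 were called in 2: MIA2 only without control 1 or heat 2, VLDLR only without control 1 or 2, and SCARB1 only without control 1 or heat 3. PLA2G12B kept its call only without control 2, SAR1A only without heat 3, and SEC24B and SEC24D only without heat 2. FOXO1, LMF1 and TM6SF2 were called in none, and their adjusted p ran up to 0.13, 0.13 and 0.14. Other settings also ended some of these calls. With the deposited scaling or with array medians set equal, SCARB1, SAR1A, SEC24D, TM6SF2 and LMF1 were not called (adjusted p from 0.051 to 0.079). Without the filter, FOXO1, LMF1, SEC24B and TM6SF2 were not called (0.053 to 0.067). With all 18 arrays in the fit CD36 and SEC24D were not (0.21 and 0.093), and with array weights TM6SF2 was not (0.059). The assembly list, with 1 array left out, counted 0 to 2 rises and 0 to 1 fall. It had neither without control 3 or without heat 1.

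In brain, 2 of 19 assembly genes rose and 1 fell, where 6.55% of all probe sets tested were called higher. With array medians set equal, 37.3% of the brain calls were higher, against 53.3%. MIA2 read 201, 211 and 188 on the controls and 345, 376 and 368 on the heat arrays (log2 0.81, SE 0.10, adjusted p = 0.013), and lost its call without control 1, control 3 or heat 2, with adjusted p up to 0.081. Averaging its probe sets gave 0.35 and no call (adjusted p = 0.053). HSPA5, the chaperone BiP of the endoplasmic reticulum, rose 2.11-fold (log2 1.08, SE 0.10, adjusted p = 0.0059), and was called in all 6. SEC31A, the outer COPII coat protein, fell by 0.42 (adjusted p = 0.045), and kept its call only without heat 1 (adjusted p up to 0.18). It also lost it without the filter (adjusted p = 0.063).

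Of 5 lipases and transfer proteins tested in brain, 2 fell, where 5.74% of all probe sets tested were called lower. LIPG, the endothelial lipase that acts on high density lipoprotein, read 1529, 1148 and 1495 on the controls and 469, 699.9 and 637 on the heat arrays (log2 -1.19, SE 0.17, adjusted p = 0.016). PLTP, the phospholipid transfer protein, read 1051, 1146 and 1575 on the controls and 659, 769 and 869.8 on the heat arrays (log2 -0.69, SE 0.17, adjusted p = 0.038). Both genes were lower on all 3 heat arrays, brain heat 1 included, unlike APOA1. LIPG lost its call without control 1, control 3 or heat 2, and PLTP kept its own only without heat 1. Their adjusted p ran up to 0.090 and 0.13. With its probe sets averaged, PLTP was not called either (-0.57, adjusted p = 0.071). In muscle no gene of the 5 lists was called, where 0.0052% of all probe sets tested were. LIPG read 206 to 333 on the muscle controls and 72.1 to 107 on the heat arrays, without overlap (21.8% of all probe sets tested there). Its heat effects in muscle and brain did not differ by the interaction test (log2 -0.26, SE 0.50, adjusted p = 0.91 by limma). PLTP was low in muscle, with means of 82.4 and 75.7.

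Genes whose pattern was most like each member were ranked by Pearson's r on the log2 scale among probe sets with 1 symbol. Over the 18 arrays, which differ above all by tissue, APOB was closest to PLG (r = 0.997), FETUB, LOC421740, FBP1 and RBP4A. APOA4 was closest to A2ML4 (r = 0.998), CYP3A5, HPD, C8A and SULT1C3, and MTTP to XDH (r = 0.997), GART, SHMT1 and both probe sets of SPIA4. APOA1 was closest to P4HB (r = 0.977), STEAP3, RRBP1, C1R and GNLY.

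Over the 6 liver arrays alone the nearest patterns were others. They were PROS1, YTHDC1, YES1, TMC5 and PRPF4B for APOB, with r up to 0.998, and SLC19A1, KBTBD3, SLC2A2, MRPS7 and PGAM5 for APOA1, with r up to 0.993. For APOA4 they were NCOA2, CLASP2, TIMM17B, PABIR2 and BCOR (r up to 0.987), and for MTTP they were IFT27, an APOB probe set, EGF, PDLIM7 and LOC769329 (r up to 0.996). Between probe sets of different members, 48 pairs had a median r of 0.29 (lowest -0.30, highest 0.99) over these 6 arrays. The pairs of APOA1, APOA4 and MTTP sets correlated at 0.91, 0.99 and 0.94. With 6 arrays and many probe sets such values describe these arrays only.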

How the data were processed

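The deposited values are linear intensities, 1 per probe set, from the series' value table. The submitters' processing notes name GCOS 1.4 without a role. The sources used here do not give how the authors summarised, background-corrected or scaled the intensities. The deposited scaling was kept in brain and muscle, whose 2% trimmed means lay within 10% of each other. Those of the liver arrays did not, and liver arrays were quantile normalized together, so arrays can share a value at the same rank.

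Control probe sets were left out, log2(intensity + 16) was taken, and probe sets below the tissue's median probe set were dropped, leaving 19220 per tissue. The limits were 96.1 in brain, 82.1 in liver and 85.1 in muscle. Each tissue was fitted alone with limma 3.58.1 (R 4.3.3), using lmFit and eBayes with an intensity trend, 3 arrays against 3. One fit of 6 group means over 18 arrays gave the interactions and the tissue differences. It treated the 18 arrays as independent, although the labels do not say whether tissues came from the same birds or pools. Tests were two-sided, and Benjamini-Hochberg adjustment ran over all probe sets tested, at 0.05. Adjusted p-values in the text come from these limma fits. The number of arrays limits the precision. The fitting steps were tested on simulated data.

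Every probe set annotated to only one of the 4 symbols was reported. From each pathway list, the called genes were named by main probe set with a few uncalled partners, and the 5 nearest patterns by correlation. Members and lists were chosen with earlier results of these data known. Scaling, pseudocount, filter, trend, array weights, block and left-out arrays were varied.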

Additional observations from a re-analysis of the deposited data

Results flagged for a closer look

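The heat effect on PPARGC1A, the metabolic coactivator, differed between liver and both other tissues by interaction contrasts in limma. Liver read 787, 334 and 576 on the controls and 2633, 2002 and 1930.4 on the heat arrays, with no overlap. Brain read 579.6, 654 and 737 against 829, 572 and 506, and muscle 1537, 1011 and 1372 against 1612, 1649 and 1318. The liver effect exceeded the brain effect by 2.06 on the log2 scale (SE 0.36, adjusted p = 0.010), and the muscle effect by 1.75 (SE 0.36, adjusted p = 0.027). The contrast with brain was called in all 12 fits that left out 1 array, and the contrast with muscle in 8 of 12. Of 7 other settings, the contrast with brain was called in 7 and that with muscle in 6, lost with the replicate block (adjusted p = 0.060).

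HNF4A, the nuclear receptor of liver genes, had a lower heat effect in liver than in muscle, with a log2 difference of -1.05 (SE 0.24, adjusted p = 0.044). Muscle HNF4A read 70.4, 88.0 and 64.7 on the controls and 73.3, 69.0 and 130.3 on the heat arrays, where muscle heat 3 is the array with the highest hepatocyte level. It did not pass the filter in muscle, where the limit was 85.1 and the highest trp value 60.6. The gene therefore entered this contrast only through liver, and its muscle effect is that of a gene near background. The contrast was called in 4 of the 12 fits without 1 array and in 2 of 7 other settings. It was lost with the deposited scaling, quantile normalization over 18 arrays, a pseudocount of 1, no filter or the replicate block (adjusted p from 0.062 to 0.14).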

How the results depend on the processing

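Counts of the 4 genes' probe sets called with heat stayed at 0 in muscle and in the interactions under every alternative run. In brain, 1 was called with array weights, and 0 to 2 when 1 array was left out. In liver, 1 was called with array weights, 1 with the replicate number as a block, and 0 to 1 when 1 array was left out. Whether the replicate numbers pair arrays is not settled. Same-numbered liver arrays had deviations that correlated at 0.12, 0.37 and -0.09. The brain values were -0.09, -0.08 and -0.04, and the muscle values were -0.45, 0.04 and -0.13. For arrays with different numbers, the lowest and highest values were -0.27 and 0.16 (liver), -0.22 and 0.32 (muscle), -0.08 and 0.11 (brain). Deviations within a group of 3 are not independent, so these values cannot decide on pairing. With the block, main APOB in liver was called (0.37, adjusted p = 0.029), and all calls in liver numbered 3094 against 2512. All calls numbered 505 in brain against 2361, and 0 in muscle against 1. The block also ended the calls of FOXO1 and TM6SF2 in liver (adjusted p = 0.051 and 0.058) and of SEC31A in brain (0.095).

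Leaving out 1 array turned the sign of several uncalled estimates; the cause was not tested. In brain, APOA4 (Gga.462.1.S1_x_at) ran from -0.10 to 1.20 and APOA1 (Gga.4719.1.S1_a_at) from -0.35 to 0.083. In liver, APOB (GgaAffx.24976.1.S1_at) ran from -0.28 to 0.85, MTTP (GgaAffx.23852.1.S1_at) from -0.16 to 0.37, and the APOA4 sets from -0.27 to 0.074 and from -0.24 to 0.067. In muscle, APOA1 ran from -0.45 to 0.21 (a_at) and from -0.35 to 0.10 (s_at), APOB (Gga.20079.1.S1_s_at) from -0.058 to 0.31 and APOA4 (Gga.462.2.S1_a_at) from -0.019 to 1.30. Liver minus brain ran from -1.28 to 0.016 for APOA4 and from -0.38 to 0.15 for MTTP. Liver minus muscle ran from -0.18 to 0.27 for APOA1 and from -0.62 to 0.016 for MTTP. Among controls, brain minus muscle ran from -0.45 to 0.0048 and from -0.53 to 0.14 for the APOA1 sets.

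All calls moved with other settings too. Brain had 1407 with all 18 arrays in the fit, 6922 with array weights, 1204 when each gene's probe sets were averaged, and 11 to 4434 without 1 array. Liver had 2512, but 3771 with 18 arrays, 5002 with weights and 499 to 2376 without 1 array. Muscle had 1701 with 18 arrays, 173 with weights, 52 with a filter at the 75th percentile, 3 with quantile normalization, 2 with no filter and 0 to 8 without 1 array. The interactions had 387, 210 and 78, but 128, 90 and 8 with the block, 322 and 165 with a pseudocount of 64 for liver minus muscle and muscle minus brain, and 117 to 630, 124 to 260 and 14 to 292 without 1 array.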
